A study of Rattus norvegicus with 40 samples.

Results

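Transcripts of 4 genes of transforming growth factor beta (TGF-beta) signalling were followed in microglia of adult rats: the ligand gene Tgfb1, the receptor genes Tgfbr1 and Tgfbr2, and the transducer gene Smad3. The genes were taken by their Ensembl IDs, ENSRNOG00000020652, ENSRNOG00000007036, ENSRNOG00000013265 and ENSRNOG00000008620, which are 4 of the 32883 gene IDs in the table of read counts. All 4 passed the filter on low counts in every comparison. The symbols came with the IDs, since neither the count table nor the RefSeq gene table pairs them. The other genes of the pathway and the markers of microglia and of other cell types therefore could not be looked up, and the labelled cell type was not checked against its markers.

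The rats were Sprague Dawley offspring aged 8 weeks. Their dams breathed intermittent hypoxia (10.5% alternating with 21% oxygen) or intermittent normoxia (21% oxygen in both phases) on gestational days 10 to 21, with 15 cycles an hour over 8 hours each day, and the pups were born and raised in normal housing. From each of 5 litters per exposure, 1 female and 1 male gave microglia of the medulla and of the C3 to C6 cervical spinal cord, collected on magnetic beads with an antibody to CD11b, a surface protein that other myeloid cells also carry. This gave 40 libraries in 8 groups of 5: female hypoxia, female normoxia, male hypoxia and male normoxia, each in the cord and in the medulla, so that every animal stands in 2 groups and replicates of a group are separate animals. Library totals ran between 6061346 and 24039411 reads, and the smallest was female hypoxia medulla replicate 3, which had counts in 13379 genes. In the female hypoxia cord a single gene took 4.56% to 11.0% of the reads, against 2.65% to 3.71% in the female normoxia cord. The factors of edgeR's trimmed mean (TMM) scaling averaged 0.928 in the female hypoxia cord, against 1.03 in the female normoxia cord. The part of these differences in the results was not tested.

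TGF-beta is secreted in a latent form and, once freed, binds the type II receptor, which recruits and phosphorylates the type I receptor. The type I receptor then phosphorylates Smad2 and Smad3, which enter the nucleus with Smad4 and change transcription. In mice, microglia depend on TGF-beta for their adult, homeostatic expression profile, and the loss of the type II receptor in microglia changes that profile. Tgfb1 encodes the ligand, Tgfbr1 the type I receptor kinase, Tgfbr2 the type II receptor that binds the ligand, and Smad3 one of the receptor-activated transcription factors.

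The clearest difference among the 4 genes was one of region. Tgfbr2 was lower in the cervical cord than in the medulla, by 1.28-fold averaged over the 4 groups of sex and exposure. That mean was added after the groups had been seen, and 24.4% of all genes tested were called in it. By plain library totals the cord value of Tgfbr2 was below its medulla value in 18 of 20 animals, a count that TMM scaling lowered. By those totals 6.22% of all genes tested were lower in at least as many animals. Tgfb1, Tgfbr1 and Smad3 passed no test of region, exposure or sex in the main edgeR fits. In those fits gestational hypoxia gave no call for any of the 4 genes in either sex or region. The nearest to one was Tgfbr2 in the female cord, which DESeq2 and some other edgeR fits called and voom did not. All 5 hypoxia libraries there were below all 5 normoxia libraries in CPM, the reads of a gene scaled to a common library total. Non-overlap of this kind, with hypoxia lower, was seen in 15.5% of genes tested. With TMM-scaled CPM the groups met.

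Every library held enough reads of each gene for counting error to be small. Tgfb1 had 2758 to 13051 reads per library, Tgfbr1 16580 to 54745, Tgfbr2 2457 to 8719 and Smad3 1210 to 3804. As CPM of the library total, Tgfb1 spanned 285 to 617 with a median of 463 over the 40 libraries. Tgfbr1 spanned 1736 to 2797 CPM, with a median of 2276. Tgfbr2 spanned 214 to 815 CPM, with a median of 371, and Smad3 spanned 90.7 to 232 CPM, with a median of 166. Read counts are not scaled by transcript length, so these levels are compared between libraries and not between genes.

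Tgfbr1 had the narrowest range of the 4, with and without the shallowest library. The highest Tgfbr1 library was 1.61 times the lowest, a narrower range than that of all but 1.48% of the 9385 genes with an average log2 CPM of at least 3. The corresponding ratios were 2.16 for Tgfb1, 2.56 for Smad3 and 3.81 for Tgfbr2, and 18.0%, 32.7% and 60.6% of genes had narrower ranges than these. The highest Tgfbr2 value came from the shallowest library. Without that library the ratio for Tgfbr2 was 2.40, below the 2.56 of Smad3, and the ratios of the other 3 genes were the same, while the median ratio over all 9385 genes was 2.35, against 3.21 with it. The shares of genes with narrower ranges were then 5.49% for Tgfbr1, 39.9% for Tgfb1, 59.8% for Smad3 and 52.8% for Tgfbr2. The 9385 genes were not matched to these for level, and counting error is larger in genes with fewer reads. The part of level in these shares was not tested.

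**Figure D1:**
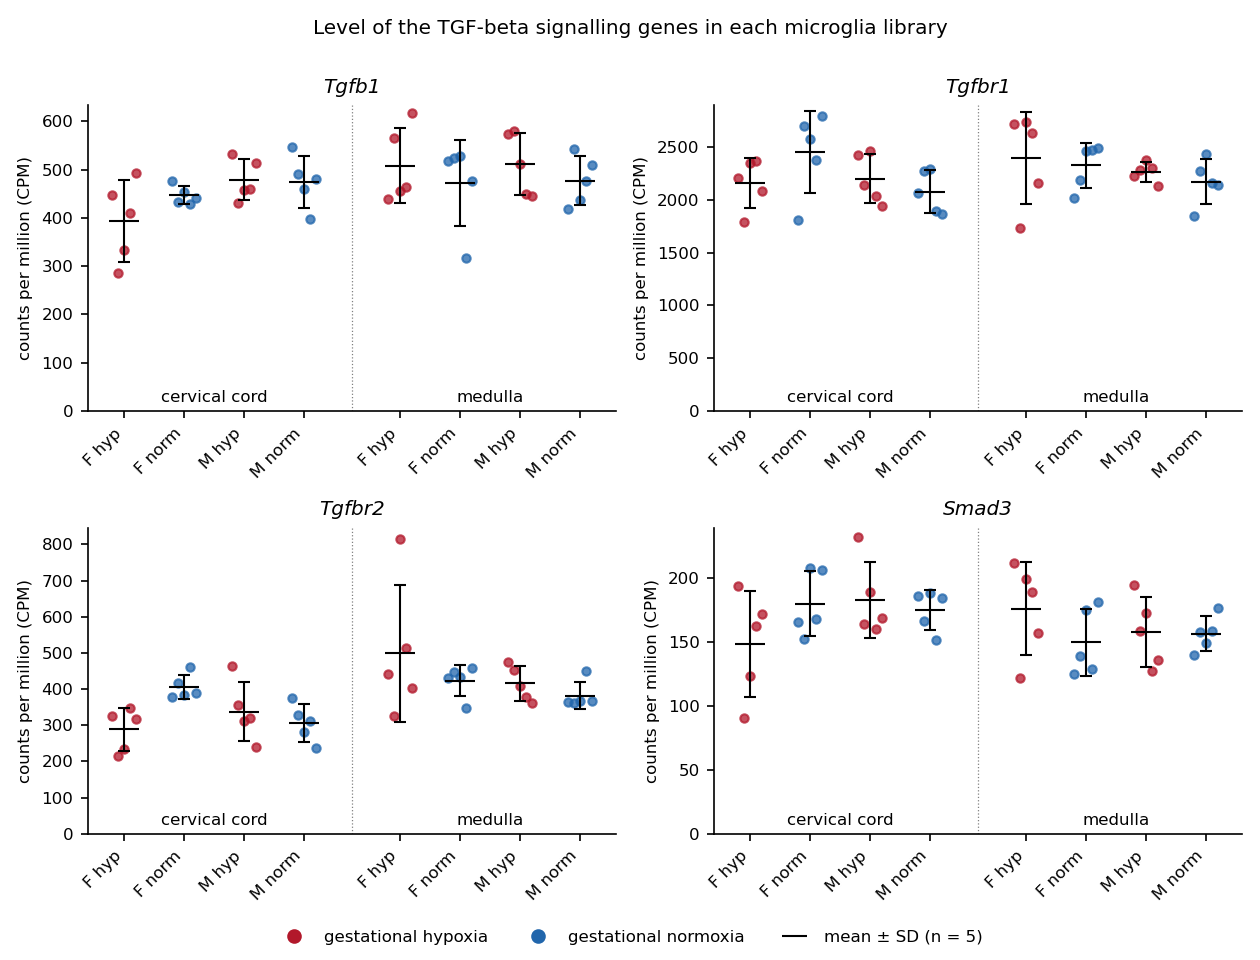
Level of each gene in CPM of the library total (vertical axis, linear, from 0) in the 8 groups. Each point is 1 library, and the bars give the mean and SD of 5 libraries; F and M are female and male, hyp and norm the gestational exposure. Tgfbr2 sits lower in most cord groups than in the medulla, and 1 female hypoxia medulla library reaches 815 CPM.

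The sequences upstream of the starts of these genes are shown for the 3 genes with bases of the RefSeq window outside the annotated gene, which are 250 bases each for Tgfb1 and Smad3 and 200 for Tgfbr1, to set Tgfbr1, the gene of narrowest range, beside the others. They come from RefSeq on build GRCr8 and not from rn6, the build given for the counts. Capitals mark GC boxes (GGGCGG, or CCGCCC on the other strand). The Tgfb1 window is chr1:90324062-90324311 on the plus strand, the Tgfbr1 window chr5:66449148-66449347 on the plus strand and the Smad3 window chr8:73132325-73132574 on the minus strand, each written 5′ to 3′ toward the start.
Tgfb1: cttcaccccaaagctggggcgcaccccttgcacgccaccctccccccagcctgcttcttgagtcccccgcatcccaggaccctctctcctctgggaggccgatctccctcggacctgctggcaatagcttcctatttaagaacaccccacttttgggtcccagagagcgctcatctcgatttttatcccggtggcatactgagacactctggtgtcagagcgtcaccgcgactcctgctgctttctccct
Tgfbr1: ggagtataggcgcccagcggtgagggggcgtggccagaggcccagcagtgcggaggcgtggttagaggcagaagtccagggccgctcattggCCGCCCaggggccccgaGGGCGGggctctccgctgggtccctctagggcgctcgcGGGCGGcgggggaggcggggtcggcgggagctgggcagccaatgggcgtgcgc
Smad3: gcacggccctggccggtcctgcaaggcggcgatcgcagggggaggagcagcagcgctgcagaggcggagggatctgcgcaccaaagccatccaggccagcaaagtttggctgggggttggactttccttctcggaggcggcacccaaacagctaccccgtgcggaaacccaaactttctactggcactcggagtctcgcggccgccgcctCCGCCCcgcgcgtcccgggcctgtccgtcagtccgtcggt

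Over the full 250 bases before the start, including the bases within the annotated gene that are not printed for Tgfbr1 and Tgfbr2, Tgfbr1 had the highest GC content of the 4 genes at 75.6%, above 97.1% of 33469 rat promoters, whose median was 51.2%. Its window held 27 CpG dinucleotides, where the median promoter held 5. Smad3 had 68.4% GC and 25 CpG, Tgfb1 60% and 11 CpG, and Tgfbr2 58% and 12 CpG. Tgfbr1 held 3 GC boxes, Tgfbr2 and Smad3 held 1 each and Tgfb1 held 0, and 30.5% of promoters held at least 1. CCAAT, searched on both strands, was found 2 times each for Tgfbr1 and Tgfbr2 and occurred in 34% of promoters. TATAAA and the palindrome GTCTAGAC, a Smad-binding sequence, were found in none of the 4 windows, and 12.9% and 0.173% of promoters held them. A match describes these letters and is not a measurement of binding.

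Tgfbr2 was compared between the regions first, since both regions came from the same animals. The values are listed by animal, while the main edgeR fit of region held group only and did not use this pairing. In the female hypoxia cord it had 326, 214, 235, 349 and 317 CPM, against 442, 325, 815, 514 and 402 CPM in the medulla of the same animals in the same order. In the male hypoxia cord it had 464, 355, 311, 319 and 241 CPM, against 475, 454, 409, 378 and 363 CPM in the medulla. By these values, CPM of the library total, all 5 animals of both hypoxia groups were lower in the cord. The ranges of the regions overlapped in each group. With TMM-scaled CPM male hypoxia replicate 1 went the other way, at 466 in the cord and 461 in the medulla. The female normoxia cord had 378, 417, 383, 461 and 390 CPM, against 431, 447, 433, 348 and 459 CPM in the medulla. The male normoxia cord had 374, 328, 280, 311 and 237 CPM, against 365, 363, 367, 450 and 366 CPM in the medulla. The cord was lower in 4 of 5 animals of either normoxia group, and the exceptions were female replicate 4 and male replicate 1.

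Averaged over the 4 groups, a comparison added after the groups had been seen, the log2 fold change of Tgfbr2 in the cord relative to the medulla was -0.35 (SE 0.094, 95% interval -0.54 to -0.16, n = 20 animals), with an adjusted p of 0.00478 by edgeR's quasi-likelihood test with Benjamini-Hochberg adjustment. Tgfbr2 was the only one of the 4 genes called, and 24.4% of the 14832 genes tested were called in this comparison, with 14.9% called as lower in the cord. The log2 fold change of Tgfbr2 lay at percentile 16.3 of all genes tested. Under 6 other settings and with each of the 40 libraries left out in turn, the call held, the estimate ran between -0.39 and -0.25, and the highest adjusted p was 0.00885. A fit with the animal as a block was among these settings. Of all genes tested, 6.22% were lower in the cord in at least 18 of 20 animals, in CPM of the library total. These are bulk libraries, so fewer cells with the transcript and less transcript per cell cannot be told apart.

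Within a single group the test called Tgfbr2 in female hypoxia only. Its log2 fold change there was -0.73 (SE 0.19, 95% interval -1.11 to -0.35), a 1.66-fold lower level in the cord, with an adjusted p of 0.00525 by edgeR. That estimate leaned on the shallowest library, since without female hypoxia medulla replicate 3 it was -0.38, with an adjusted p of 0.0492. Voom with quality weights gave -0.27 and an adjusted p of 0.278, and a fit of only the 10 libraries compared gave -0.75 and 0.175, so neither called it. In male hypoxia the Tgfbr2 log2 fold change was -0.28 (SE 0.19, edgeR adjusted p = 0.406), in male normoxia -0.29 (SE 0.19, adjusted p = 0.389), and in female normoxia it was within 1 SE of 0. Among all genes tested, 26.2% were called between the regions in female hypoxia, 13.5% as lower in the cord, and the shares called were 5.86% in female normoxia, 7.75% in male hypoxia and 6.55% in male normoxia. These shares depended on the fit: with only the 10 libraries compared they were 0.99% in female hypoxia, 15% in female normoxia, 5.49% in male hypoxia and 12.3% in male normoxia.

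Whether the region difference depended on exposure was tested directly. In females the interaction of region and exposure for Tgfbr2 was -0.63 on the log2 scale (SE 0.27, 95% interval -1.16 to -0.09, edgeR adjusted p = 0.0874), with 20.7% of genes called. In males the estimate was within 1 SE of 0 (SE 0.26, 95% interval -0.53 to 0.55), and 0 of 14832 genes were called by edgeR, with 279 at an unadjusted p under 0.05 and 0 called by DESeq2 or by voom. The female estimate therefore did not pass the threshold, and it too moved with single libraries: it was -0.75 without female hypoxia medulla replicate 2, with an adjusted p of 0.0279, and -0.30 without replicate 3, with an adjusted p of 0.278. Voom gave -0.16 for it (adjusted p = 0.659).

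Averaged over the 4 groups, Tgfb1 and Smad3 went in opposite directions between the regions, without passing the test. The cord value of Tgfb1, in CPM of the library total, was the lower one in 14 of 20 animals. As many animals or more were lower for 27.1% of all genes tested. The mean log2 fold change of Tgfb1 over the 4 groups was -0.11 (SE 0.065, edgeR adjusted p = 0.220). In female hypoxia Tgfb1 had 448, 285, 334, 409 and 493 CPM in the cord, against 440, 566, 455, 465 and 617 CPM in the medulla. There 4 of 5 animals were lower in the cord. With TMM-scaled CPM replicate 4 of these turned, at 433 in the cord and 422 in the medulla. The log2 fold change of Tgfb1 in female hypoxia was -0.27 (SE 0.13, edgeR adjusted p = 0.119), which DESeq2 called at an adjusted p of 0.0472. Smad3 in CPM of the library total was higher in the cord in 15 of 20 animals. Of all genes tested, 10.3% were higher in at least as many. Outside female hypoxia it was higher in 14 of 15 animals, a split of the animals that was not planned. The share of all genes higher in as many of these animals was not counted. Among female hypoxia animals it was lower in 4 of 5. In that group it had 194, 90.7, 123, 163 and 172 CPM in the cord, against 212, 122, 200, 189 and 157 CPM in the medulla, and the regions overlapped. TMM-scaled CPM of Smad3 there were 203, 106, 134, 172.4 and 178 in the cord, against 191, 120, 236, 172.1 and 162 in the medulla. The direction within female hypoxia animals thus depended on the scaling.

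Smad3 was not called by region in any group by edgeR, though it differed in 1 direction within every animal of male hypoxia and of female normoxia. In the male hypoxia cord Smad3 had 232, 164, 189, 161 and 169 CPM, against 195, 159, 173, 128 and 136 CPM in the medulla of the same animals. In the female normoxia cord it had 166, 153, 208, 168 and 206 CPM, against 125, 139, 175, 129 and 181 CPM in the medulla. In both groups every animal was higher in the cord, and the regions overlapped. The share of all genes that did so was not counted. The log2 fold change was 0.23 in each (SE 0.15, edgeR adjusted p = 0.410 in male hypoxia and 0.366 in female normoxia). With the animal as a block the adjusted p was 0.216 in male hypoxia and 0.181 in female normoxia. In male normoxia it was 0.19 (SE 0.15, adjusted p = 0.515, higher in 4 of 5 animals). Over the 4 groups the mean was 0.12 (SE 0.076, adjusted p = 0.254), and the female interaction of region with exposure was -0.38 (SE 0.22, adjusted p = 0.215).

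Tgfbr1, the partner of Tgfbr2 in the receptor complex, differed between the regions by less than its error. Its median was 2243 CPM in the cord and 2281 CPM in the medulla, the cord was the lower in 13 of 20 animals, and the mean log2 fold change was within 1 SE of 0, with a 95% interval of -0.14 to 0.11.

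**Figure D2:**
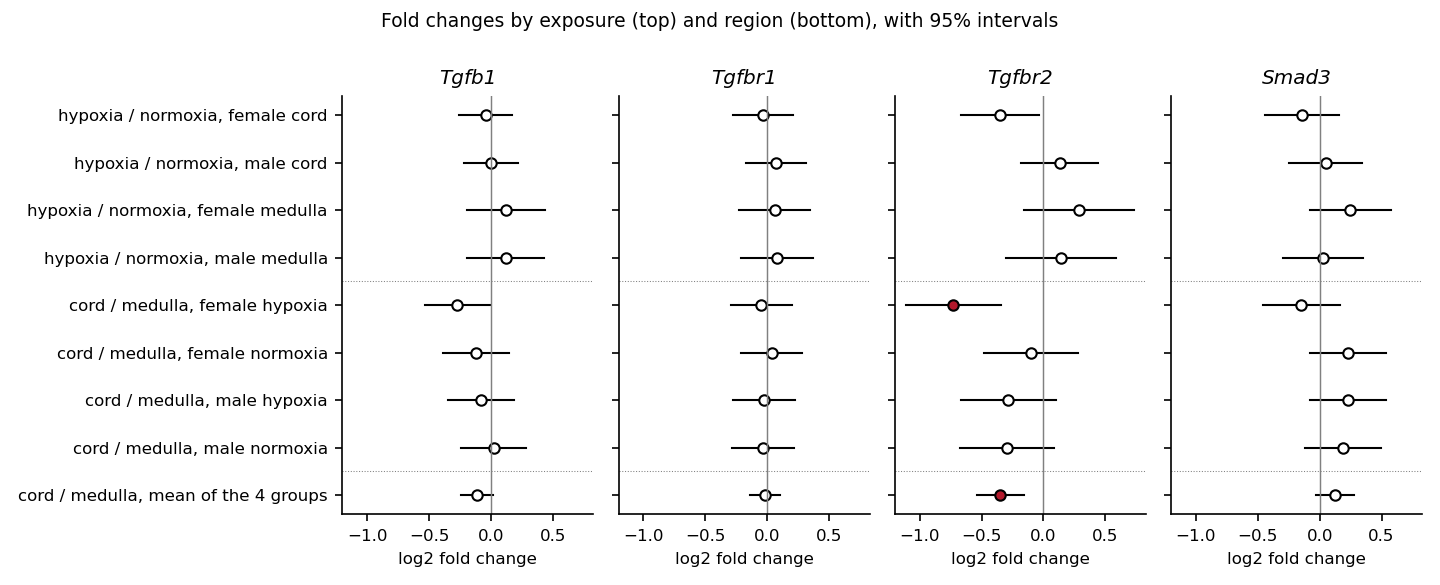
Log2 fold change of each gene (horizontal axis) for hypoxia over normoxia in 4 settings, for cord over medulla in 4 settings, and for the mean of the 4 region differences (bottom). Points are edgeR estimates and lines their 95% intervals; filled points had an adjusted p under 0.05 over all genes tested. Both filled points belong to Tgfbr2, at -0.73 in female hypoxia and -0.35 for the mean.

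The balance of the receptor transcripts was also followed as the reads of Tgfbr1 per read of Tgfbr2, a ratio within a library that no scaling touches and that was added after the values had been seen. In female hypoxia it averaged 7.69 ± 1.47 in the cord and 5.07 ± 1.04 in the medulla (SD, n = 5 each). The difference of the log2 ratio there was 0.61, and 0.37 without replicate 3. Male hypoxia had 6.73 ± 1.23 in the cord and 5.50 ± 0.606 in the medulla, and male normoxia 6.92 ± 1.14 in the cord and 5.72 ± 0.774 in the medulla. In each of these 3 groups the ratio was higher in the cord in 5 of 5 animals. In female normoxia it averaged 6.06 ± 1.03 in the cord and 5.56 ± 0.956 in the medulla, and was higher in the cord in 4 of 5 animals. The ratio holds the same Tgfbr2 reads as the region comparison above, so it is not a separate result. How many other pairs of genes had ratios with such counts of animals was not determined. The two-sided exact sign-flip permutation test over pairs gave p = 0.0625 in each of the 3 groups, the smallest that its 32 arrangements allow, and 0.5625 in female normoxia. With 5 pairs a region comparison of the ratio could not reach 0.05, before or after adjustment over the 8 comparisons made. The rest compared exposure within each sex and region. In the female cord the log2 ratio was 0.34 higher under hypoxia (exact permutation p = 0.0952, adjusted p = 0.1905). It was lower under hypoxia in the male cord and in the medulla of both sexes, with adjusted permutation p-values of 0.689 or 0.778.

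**Figure D3:**
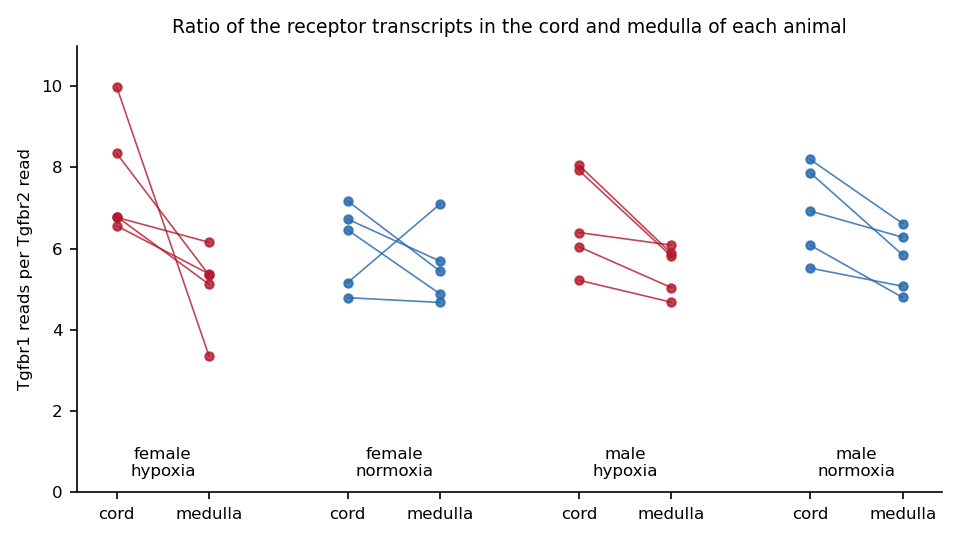
Reads of Tgfbr1 per read of Tgfbr2 (vertical axis, from 0) in the cord and in the medulla of each animal, with a line joining both regions of 1 animal. Lines fall toward the medulla in 19 of 20 animals, a count not set against other pairs of genes. The exception is in female normoxia, and the lowest point, 3.35, is female hypoxia medulla replicate 3.

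Gestational hypoxia was then set against normoxia within each sex and region. In the female cord, 0 of 4 genes were called by edgeR, where 32.8% of 13593 genes were called. At an unadjusted p under 0.05 there was 1 of the 4, Tgfbr2, which DESeq2 called and voom did not. Tgfbr2 in the female cord averaged 288 ± 59.8 CPM under hypoxia and 406 ± 34.2 CPM under normoxia (SD, n = 5 each). The highest hypoxia value, 349 CPM, was below the lowest normoxia value, 378 CPM. Non-overlap of this kind, with hypoxia lower, was seen in 15.5% of genes tested. With TMM-scaled CPM the groups met, as hypoxia replicate 4 stood at 369 and normoxia replicates 1 and 3 at 368 and 362.

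The log2 fold change of Tgfbr2 in the female cord was -0.35 (SE 0.15, 95% interval -0.67 to -0.04), with an adjusted p of 0.0768 by edgeR. DESeq2 gave an adjusted p of 0.0473, edgeR on the 10 female cord libraries alone gave 0.0408, and the fit of all 40 libraries gave 0.190. With plain library totals in place of TMM factors the estimate was -0.49 with an adjusted p of 0.0194, and the median of all genes was -0.16 under that scaling. The call thus depended on the fit and the scaling.

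The other 3 genes of the female cord lay closer to 0. Tgfb1 averaged 394 ± 84.3 CPM under hypoxia and 447 ± 19.0 CPM under normoxia, Tgfbr1 2159 ± 238 CPM under hypoxia and 2451 ± 390 CPM under normoxia, and Smad3 149 ± 41.2 CPM under hypoxia and 180 ± 25.4 CPM under normoxia (SD, n = 5 each). In all 3 the groups overlapped and the scaled log2 fold changes had 95% intervals that held 0, the widest being that of Smad3, -0.44 to 0.15. The median log2 fold change of the 4 genes was -0.094, where that of all genes tested was -0.0066. Under this design a difference in these 3 genes of the size seen was not detectable beyond the spread between animals.

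In the male cord 0 of 4 genes were called, and 0% of 13593 genes were, by edgeR, with 842 genes but none of the 4 at an unadjusted p under 0.05. DESeq2 called 1 gene and voom 0, and neither was among the 4. Tgfbr2 averaged 338 ± 81.5 CPM under hypoxia and 306 ± 51.4 CPM under normoxia (SD, n = 5 each), and the groups overlapped. Its log2 fold change had a 95% interval of -0.18 to 0.44. The difference between the female and the male exposure effect for Tgfbr2 was -0.48 in the cord (SE 0.21, 95% interval -0.93 to -0.04, edgeR adjusted p = 0.102), with 23.2% of genes called for that interaction. It passed without male hypoxia cord replicate 5, at an adjusted p of 0.0334, and with plain totals.

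In the medulla no exposure effect was called for the 4 genes or, by edgeR, for any of 14151 genes (0%) in either sex. EdgeR with all 40 libraries in the fit called 514 genes in females and 0 in males, none of them among the 4. Unadjusted p-values under 0.05 numbered 2180 in females and 122 in males, none of them from the 4 genes. DESeq2 called 53 genes in females and 0 in males, and voom called 1 in females and 0 in males. Tgfbr2 averaged 500 ± 189 CPM in the female hypoxia medulla and 424 ± 43.6 CPM in the female normoxia medulla (SD, n = 5 each). Without replicate 3, the shallowest library, at 815 CPM, the hypoxia mean was 421 ± 78.9 CPM over 4 libraries. The log2 fold change of 0.29 (SE 0.21, edgeR adjusted p = 0.505) was -0.054 without that library. Smad3 averaged 176 ± 36.5 CPM in the female hypoxia medulla and 150 ± 26.5 CPM in the female normoxia medulla, a log2 fold change of 0.25 (SE 0.16, edgeR adjusted p = 0.436). In the male medulla Tgfb1 averaged 512 ± 64.8 CPM under hypoxia and 477 ± 51.0 CPM under normoxia, and Tgfbr1 2263 ± 91.1 CPM under hypoxia and 2171 ± 214 CPM under normoxia. Tgfbr2 averaged 416 ± 48.0 CPM under hypoxia and 382 ± 37.8 CPM under normoxia there, and Smad3 158 ± 27.4 CPM under hypoxia and 157 ± 13.7 CPM under normoxia. The groups overlapped for each gene. The interaction of sex with exposure was called for 0 of 4 genes and 0 of 14151 in the medulla by edgeR, with 879 genes but none of the 4 at an unadjusted p under 0.05; DESeq2 called 2 genes and voom 1, none of them among the 4.

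Between the sexes, 0 of 4 genes were called by edgeR in any of 4 settings, and DESeq2 and voom called none either. The share of all genes called was 19.6% in the hypoxia cord, 6.56% in the normoxia cord, 0.0777% in the hypoxia medulla and 0.0707% in the normoxia medulla. Tgfbr2 in the normoxia cord was the sole one of the 16 tests with an unadjusted p under 0.05. It averaged 406 ± 34.2 CPM in females and 306 ± 51.4 CPM in males (SD, n = 5 each), and the lowest female value, 378 CPM, was above the highest male value, 374 CPM. The log2 fold change of females over males was 0.36 (SE 0.15, 95% interval 0.04 to 0.67, edgeR adjusted p = 0.152), and 5.98% of genes had females above males with no overlap in this comparison. In TMM-scaled CPM these groups met, as the lowest female value was 362 and the highest male value 369. In the hypoxia cord Tgfbr2 averaged 288 ± 59.8 CPM in females and 338 ± 81.5 CPM in males, and the groups overlapped. Tgfb1 in the hypoxia cord had a log2 fold change of -0.18 (SE 0.10, adjusted p = 0.226) and Smad3 one of -0.20 (SE 0.14, adjusted p = 0.327), both from edgeR. In the hypoxia medulla the Tgfbr2 estimate was 0.33 (SE 0.21, edgeR adjusted p = 0.478), and -0.019 without female replicate 3. Tgfbr1 in the normoxia cord had 0.19 (SE 0.12, edgeR adjusted p = 0.355).

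The order of the group means differed from gene to gene, and no neighbours in any order differed by more than their pooled SD. For Tgfb1 it ran between 512 CPM in the male hypoxia medulla and 394 CPM in the female hypoxia cord, and for Tgfbr1 between 2451 CPM in the female normoxia cord and 2079 CPM in the male normoxia cord. For Tgfbr2 it ran between 500 CPM in the female hypoxia medulla and 288 CPM in the female hypoxia cord. For Smad3 it ran between 183 CPM in the male hypoxia cord and 149 CPM in the female hypoxia cord. The female hypoxia cord was thus lowest for Tgfb1, Tgfbr2 and Smad3 in CPM of the library total, in the group whose TMM factors averaged 0.928. In TMM-scaled CPM it stood at 422 for Tgfb1, the lowest mean, at 309 for Tgfbr2, where the male normoxia cord stood at 305, and at 159 for Smad3, where the female normoxia medulla stood at 149.

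The pairs of regions were also used to see whether an animal with a high level in one region had a high level in the other, with group means removed, over 20 animals and with p-values adjusted over the 4 genes. Tgfbr1 had Pearson's r = 0.47 between medulla and cord (permutation within groups, p = 0.0119, adjusted p = 0.0475) and Spearman's rho = 0.49 (adjusted permutation p = 0.106). Without the 2 animals farthest from the median of the medulla, r was 0.48 with an adjusted permutation p of 0.185, so the call was lost at a like value. With plain library totals Tgfbr1 had r = 0.66 (adjusted permutation p = 0.00928). Smad3 had r = 0.56 (permutation p = 0.0552, adjusted p = 0.110) and rho = 0.50 (adjusted p = 0.106), and without the 2 farthest animals r was 0.66 with an adjusted permutation p of 0.0163. With plain totals Smad3 had r = 0.70 (adjusted permutation p = 0.0125). Tgfb1 had r = -0.0053 and rho = 0.015, and Tgfbr2 had r = -0.029 and rho = 0.11, with an adjusted permutation p of 0.984 for each r. The difference between the genes in this respect was not tested. Nor was the share of all genes with as high an r between the regions counted.

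**Figure D4:**
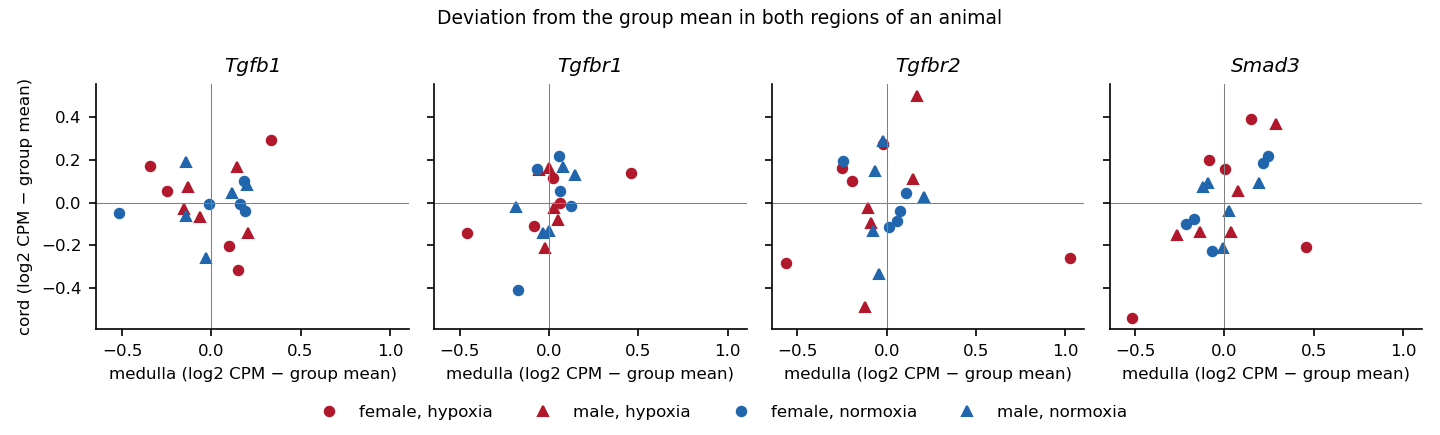
Deviation of each animal from its group mean in the medulla (horizontal axis) and in the cord (vertical axis), in log2 of TMM-scaled CPM, 1 point per animal. Points of Tgfbr1 and Smad3 lean along the rising diagonal (r = 0.47 and 0.56), and those of Tgfb1 and Tgfbr2 do not (r = -0.0053 and -0.029).

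Within a region, the 4 genes were compared with each other across libraries with group means removed, as 12 pairs. One pair had an adjusted p under 0.05: Tgfb1 and Smad3 in the cord, the ligand and the transducer, with Pearson's r = 0.73 (permutation p = 0.00254, adjusted p = 0.0305, n = 20 libraries) and Spearman's rho = 0.65 (adjusted permutation p = 0.0968). Without the 2 libraries farthest from the median of Tgfb1, r was 0.62 with a permutation p of 0.0112 and an adjusted p of 0.135, so the call was lost. In the medulla the same pair had r = 0.12. The share of all genes with as high an r to Tgfb1 in the cord was not counted. Tgfbr1 and Tgfbr2 had r = 0.35 in the cord (adjusted permutation p = 0.193). In the medulla they had r = 0.68 but rho = 0.027, and r = -0.33 without the 2 farthest libraries, so this relation rested on those 2.

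Across all 40 libraries, group differences included, the genes most like a member were taken by Pearson's r of log2 CPM among 9384 genes, as a description over libraries that share depth and animals. The gene most like Tgfbr2 was ENSRNOG00000055365, with r = 0.90, and the gene most like Tgfb1 was ENSRNOG00000045775, with r = 0.81; the sources used here give no symbol for either. The members were not each other's nearest genes. Tgfbr2 ranked 403 among the genes most like Tgfbr1, with r = 0.52, and 1444 with r = 0.31 once the shallowest library was left out. Smad3 ranked 911 among the genes most like Tgfb1, with r = 0.33, and Tgfbr1 ranked 7248 there, with r = -0.17.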

How the data were processed

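Gene-level read counts of 40 libraries, deposited by the authors as whole numbers for 32883 Ensembl IDs, were used as given. Build rn6, TopHat2 2.1, HTSeq and edgeR are named per the submitters' processing notes; roles, annotation, strand setting and filters: not given in the sources used here. Overlapping or antisense genes may share reads. The table has 0 rows that name no gene. Totals of 6061346 to 24039411 reads set the precision.

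Fits used edgeR 4.0.16 in R 4.3.3: the quasi-likelihood test with TMM factors, after the filter filterByExpr at a minimum count of 10, on the 20 libraries of a region for exposure and sex and on all 40 for region, with Benjamini-Hochberg adjustment over all genes and calls at an adjusted p under 0.05. These main fits had no block, so those of region did not use the pairing of libraries by animal. SEs are those implied by the F statistic. There were 16 planned comparisons, 64 tests of the 4 genes. Permutations (100000 resamples) used NumPy 2.4.6. The code was tested on simulated counts. Alternatives were RLE size factors, no filter, DESeq2 1.42.0, limma 3.58.1 voom with quality weights, other sets of libraries, leaving out each library, and a replicate block. Plain library totals, the shared fit without the shallowest library, the receptor ratio and the mean of the 4 region differences were added after the data were seen.

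Libraries of cord and medulla with the same number are from the same animal by the design and labels; deviations from group means correlated positively in 20 of 20 such pairs (r 0.067 to 0.42, over 0.1 in 14). Between replicates, chi-square per degree of freedom was at least 10.1, so none was a library deposited again. The members and 7 pathway lists were chosen with earlier results of these data known. The naming rule took the 4 members, listed genes with symbols, and the genes with the highest r to each member. No ID could be matched to a symbol, so the lists and cell type markers were not analysed.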

Additional observations from a re-analysis of the deposited data

Results flagged for a closer look

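Among 32 sets of 5 CPM values (4 genes in 8 groups), 3 held a library that stood far from the other 4 by Dixon's ratio; chance gives about 1 such set in 20. Tgfb1 in female normoxia medulla replicate 4 was at 318 CPM, with the other 4 libraries between 477 and 529 CPM. Tgfbr2 in that library was at 348.2 CPM, with the other 4 between 431 and 459 CPM. Tgfbr2 in male normoxia medulla replicate 4 was at 449.6 CPM, with the other 4 between 363 and 367 CPM.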

How the results depend on the processing

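Of the 4 genes, 0 were called for exposure in the female cord, but 1 (Tgfbr2) was with DESeq2, plain library totals, only the libraries compared, or the replicate block, and 0 to 1 without single libraries. The interaction of sex and exposure in the cord had 0 calls, 1 with plain totals and 0 to 1 without single libraries, as had that of region and exposure in females. For cord against medulla in female hypoxia there was 1 call, 2 with DESeq2 or plain totals, 0 with voom or only the libraries compared, and 1 to 2 without single libraries. With plain totals the median log2 fold change of all genes was -0.18 in the interaction with sex, -0.16 in the other comparisons just named, and -0.10 between the sexes in the hypoxia cord. The cause of each change was not tested.

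Directions reversed with voom for Tgfbr2 in the female medulla by exposure (-0.14), Tgfbr2 (-0.12) and Smad3 (-0.10) in the hypoxia medulla by sex, and Smad3 for sex by exposure in the medulla (-0.071). Without single libraries the first spanned -0.054 to 0.46 and the second -0.019 to 0.50, and both lows left out female hypoxia medulla replicate 3. Each estimate above 1 SE was refitted many times, and the counts that follow are of refits. Of the other refits, 373 without single libraries and 177 under other settings kept direction and side of the threshold. Another 5 without single libraries and 8 under other settings newly passed it, and 2 under other settings lost it.

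Within-animal r moved as follows. Without the 2 farthest animals it was 0.082 for Tgfb1, 0.48 for Tgfbr1 (no longer called), 0.16 for Tgfbr2 and 0.66 for Smad3 (called). With plain totals it was 0.025 for Tgfb1, 0.66 for Tgfbr1 (called), 0.11 for Tgfbr2 and 0.70 for Smad3 (called). Without the 2 farthest libraries r was 0.62 for Tgfb1 and Smad3 in the cord and -0.33 for Tgfbr1 and Tgfbr2 in the medulla.

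The animal block gave -0.62 for Tgfbr2 between regions in female hypoxia (edgeR adjusted p = 0.0169) and changed no call between regions. Within a region, numbers are not tied to litters by the labels; deviations of same-numbered libraries had a median r of 0.031 over 60 pairs, with 22 over 0.1. That replicate block added the Tgfbr2 call of the female cord (adjusted p = 0.0393).

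Genes called over the whole table changed by over 1.5 times as follows. Between regions, female hypoxia had 3886, against 1712 with voom and 132 with only the libraries compared. Female normoxia had 869, against 1459 with DESeq2, 2659 with voom, 1944 with its own libraries, 1812 without the shallowest library and 291 to 1110 without single ones. Male hypoxia had 1149, against 703 with its own libraries, 1848 without the shallowest and 386 to 1305 without single ones. Male normoxia had 972, against 1583 with DESeq2, 2008 with voom, 1668 with its own libraries, 1937 without the shallowest and 291 to 1005 without single ones. The female region by exposure had 3076, against 1038 with its own libraries. Between sexes, the hypoxia cord had 2662, against 992 with all 40 libraries and 1477 to 3139 without single ones. The normoxia cord had 892, against 592 unfiltered, 1577 with DESeq2, 122 with all 40 and 136 to 1226 without single ones. The hypoxia medulla had 11, against 41 with DESeq2 and 333 with all 40; the normoxia medulla had 10, against 16 with DESeq2 and 26 with voom. Sex by exposure had 3155 in the cord, against 1562 with all 40, and 0 in the medulla, against 2 with DESeq2 and 1 with voom. Exposure in the female medulla had 0, against 53 with DESeq2, 514 with all 40 and 0 to 1 without single libraries; in the male cord 0, against 1 with DESeq2 and 0 to 2.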
